A study of Mus musculus with 10 samples.

Results

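Untreated bone marrow-derived macrophages were described from their own raw count libraries, 2 of the 10 libraries of a study in which other cultures received 0.03 or 10 nM Kdo2-lipid A, a minimal form of lipopolysaccharide that activates Toll-like receptor 4, for 1 or 2 h. The macrophages came from C57BL/6J mice and were differentiated from marrow for 6 days in medium with 30 ng/ml recombinant mouse M-CSF, the growth factor of the lineage. Both cultures were harvested with no ligand, 1 in experiment 2 and 1 in experiment 1, which the submitters describe as independent. The sources used here do not give the animals' age, sex or number. The stimulated libraries were not compared with the untreated ones. The untreated libraries were 2 samples of 1 group, so the values are descriptions given as the level in each library or as mean ± SD (n = 2), with no test. The SD of 2 values can fall far below the usual spread between libraries, so a small SD is not a measure of precision.

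Macrophages differentiate from marrow progenitors under M-CSF, whose receptor is encoded by Csf1r, and their gene programme is set up by PU.1 with C/EBP, IRF and MAF factors. They engulf particles and dying cells, digest them in acid lysosomes, store and recycle the iron of red cells, and export cholesterol with apolipoprotein E. They carry receptors for antibody, complement and microbial molecules before any stimulus arrives.

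The libraries held 35989957 counts in experiment 2 and 36676424 counts in experiment 1 over 23284 genes, within the 33179599 to 42167096 counts of all 10 libraries. Levels were expressed in transcripts-per-million units (TPM), in which each gene's count is divided by its exonic length and each library is scaled to the same sum. At the median length of a detected gene, 2756 bases, 1 TPM stood for 46.0 counts in experiment 2 and 48.0 counts in experiment 1. A count of 0 allows up to 3 counts, or 0.0834 in counts-per-million units (CPM) in experiment 2 and 0.0818 CPM in experiment 1, and such limits cover counting error only. In 10979 genes, or 47.2%, the level was at least 1 TPM in both libraries. It was at least 10 TPM in both for 7731 genes, at least 100 TPM for 1565 genes and at least 1000 TPM for 130 genes. No count was found in either library for 8051 genes, or 34.6%, and 1391 genes had a count in only 1 library. Among genes at 1 TPM or above in both, the median level was 23.1 TPM and the quartiles were 8.56 and 57.9 TPM.

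A small number of genes held much of the transcript pool. The highest gene alone held 3.28% of the TPM sum in experiment 2 and 3.58% in experiment 1, and the 3 highest held 8.12% in experiment 2 and 8.48% in experiment 1. The 100 highest genes held 34.7% in experiment 2 and 35.6% in experiment 1, a mean of 35.2% ± 0.622. A share of 50% was reached with 304 genes in experiment 2 and 280 genes in experiment 1, and 90% with 3998 genes in experiment 2 and 3881 genes in experiment 1. Of the 130 genes at 1000 TPM or above, 105 belonged to at least 1 of the 40 lists described here. Cytosolic ribosomal proteins gave 43 of them, macrophage identity genes 13, lysosomal genes 12 and genes of the actin cytoskeleton 10, with some genes in several lists. The lists were chosen with earlier results of these data known, so these counts are descriptions only.

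**Figure D1:**
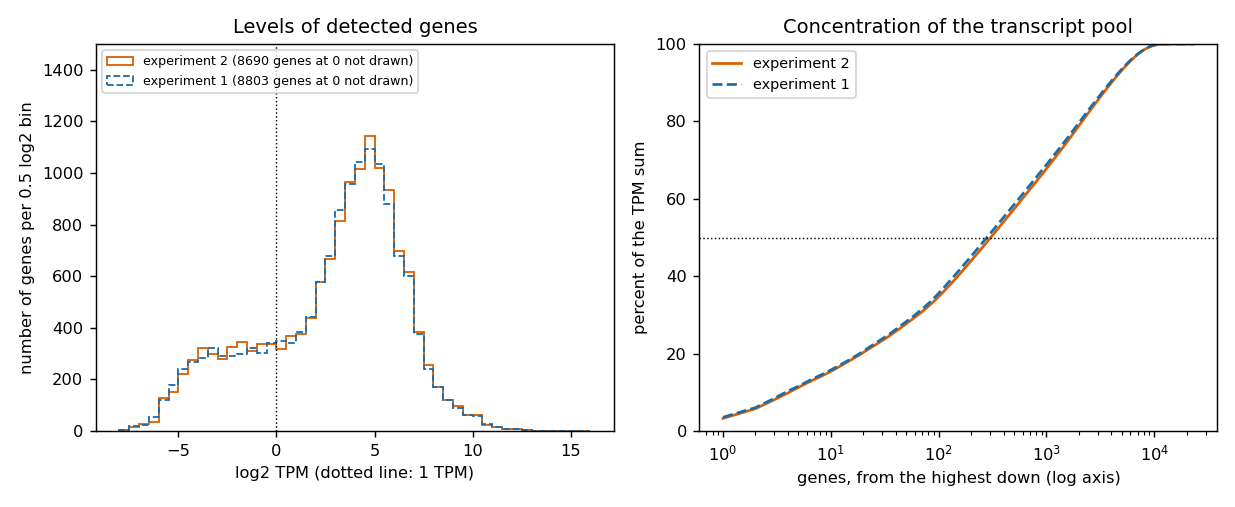
Levels and concentration in the untreated libraries. The left panel counts genes per 0.5 log2 TPM bin and the right panel gives the percent of the TPM sum held by genes from the highest down, for experiment 2 (solid) and experiment 1 (dashed). The curves of both libraries lie close together and cross 50% at 304 genes in experiment 2 and 280 genes in experiment 1.

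The most abundant transcript was Lyz2, which encodes the lysozyme of myeloid cells that cuts bacterial cell walls (chr10:116714597-116719328, minus strand, mm9). It had 32816 TPM in experiment 2 and 35804 TPM in experiment 1, from 578865 counts in experiment 2 and 659603 counts in experiment 1. The ferritin heavy chain Fth1 (chr19:10057193-10059582, plus strand, mm9) had 25097 TPM in experiment 2 and 24107 TPM in experiment 1. The ferritin light chain Ftl1 (chr7:52713314-52715256, minus strand, mm9) had 23242 TPM in experiment 2 and 24906 TPM in experiment 1. The ferritin chains changed places between libraries, so their order was not resolved, while Lyz2 was above both in each library. Both ferritin chains form the hollow shell in which cells store iron. The actin-binding peptide gene Tmsb4x had 17326 TPM in experiment 2 and 18600 TPM in experiment 1. The apolipoprotein gene Apoe, which exports cholesterol from macrophages, had 14375 TPM in experiment 2 and 12494 TPM in experiment 1.

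The next places were taken by lysosomal genes. Psap, the precursor of the saposins that help degrade sphingolipids, had 11229 TPM in experiment 2 and 11570 TPM in experiment 1. The aspartic protease gene Ctsd had 9061 TPM in experiment 2 and 9247 TPM in experiment 1. Actb, the cytoplasmic beta-actin, stood between the lysosomal genes at 7477 TPM in experiment 2 and 7628 TPM in experiment 1. The cysteine protease Ctss, which trims the class II invariant chain, followed at 6961 TPM in experiment 2 and 6673 TPM in experiment 1, and Ctsb was at 6053 TPM in experiment 2 and 6090 TPM in experiment 1. The translation elongation factor Eef1a1 averaged 6633 ± 49.2 TPM and the complement subunit C1qb 6271 ± 62.8 TPM (SD, n = 2 each). The class I light chain B2m averaged 5235 ± 355 TPM. Itm2b, which encodes a membrane protein, averaged 5082 ± 54.2 TPM. Sepp1, the selenium carrier selenoprotein P, averaged 4772 ± 187 TPM.

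Ranks 16 to 30 ran from 4605 to 2550 TPM. They held Cst3, the inhibitor cystatin C; H2-D1, a classical class I heavy chain; Tpt1, the translationally controlled tumour protein; Rplp1, a ribosomal protein; C1qc; Emr1, the F4/80 antigen; Tyrobp, the adaptor of activating receptors; Actg1; Cd74, the invariant chain; Lgals3; Gpnmb; and Grn, which encodes progranulin. The remaining 3 entries of these ranks cannot be read as plain messenger levels. LOC547349 shared 69.9% of its exon bases with H2-D1 on the same strand, so its 4228 ± 132 TPM could not be separated from that gene. Mir5107 was an 88-base feature at chr18:60971730-60971817 (mm9, plus strand) inside Cd74, whose exons it shares over 13.6% of its bases, with 5847 counts in experiment 2 and 6288 counts in experiment 1. Rn45s, the ribosomal RNA precursor, had 3510 TPM in experiment 2 and 4054 TPM in experiment 1, which was 0.949% of counts in experiment 2 and 1.12% in experiment 1.

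Neighbouring places were often too close to order. Of the 30 steps between neighbours from rank 1 to rank 31, the gap was larger than the larger SD of the pair in 15 and smaller in 15, and 8 pairs stood in opposite order in the libraries. The first clear gap was the 9708 TPM between Lyz2 and Fth1, against a larger SD of 2112 TPM. The libraries shared 29 of their 30 highest genes and 96 of their 100 highest. Scaling by length mattered more for the list than the choice of library. By CPM, without length, only 22 of the 30 highest and 52 of the 100 highest genes were the same. The 100 highest had a median length of 989 bases by TPM and 2576 bases by CPM.

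**Figure D2:**
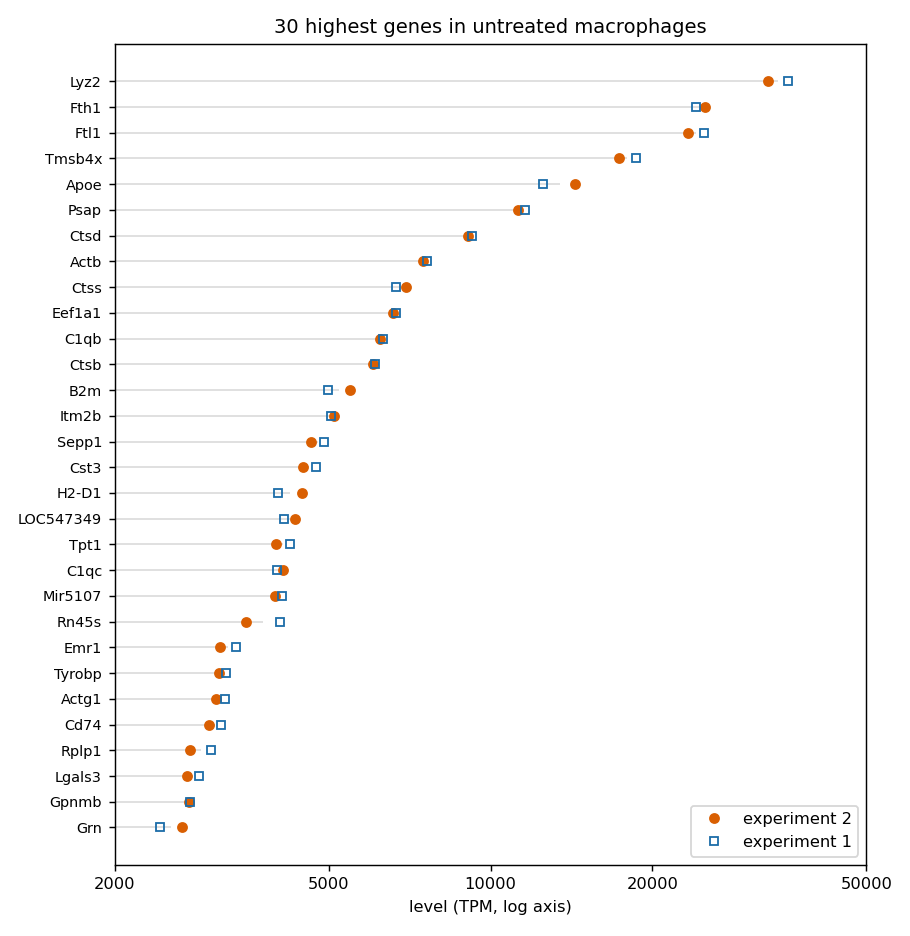
The 30 highest genes of the untreated macrophages by mean level. Points give TPM on a log axis for experiment 2 (filled circles) and experiment 1 (open squares), and grey lines lead to the mean. Lyz2 is the highest in both libraries, and Fth1 and Ftl1 are in opposite order.

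The promoters of the highest genes were of unlike base composition, and 6 are printed to show the contrast, with CG dinucleotides in capitals. They were chosen for it after their letters were seen, and Mpeg1, at 2504 TPM, is outside the rule for naming genes. They are RefSeq sequences of GRCm38.p6, read 5′ to 3′ on the gene's strand, from 250 bases before to 50 bases after the annotated start. The count table uses mm9, so these coordinates are on another build than the gene positions above. Lyz2 (chr10:117282223-117282522, minus), C1qb (chr4:136886151-136886450, minus) and Mpeg1 (chr19:12460520-12460819, plus), which encodes a pore-forming protein of macrophages, had 1, 6 and 2 CG dinucleotides. Ctsd (chr7:142387778-142388077, minus), Eef1a1 (chr9:78481675-78481974, minus) and Tmsb4x (chrX:167209169-167209468, minus) had 33, 22 and 20.
Lyz2: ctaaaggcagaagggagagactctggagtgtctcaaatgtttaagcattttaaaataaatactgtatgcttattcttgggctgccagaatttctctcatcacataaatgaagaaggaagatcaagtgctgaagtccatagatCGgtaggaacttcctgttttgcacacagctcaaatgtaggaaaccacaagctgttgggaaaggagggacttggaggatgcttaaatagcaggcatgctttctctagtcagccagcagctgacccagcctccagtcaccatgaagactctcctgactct
C1qb: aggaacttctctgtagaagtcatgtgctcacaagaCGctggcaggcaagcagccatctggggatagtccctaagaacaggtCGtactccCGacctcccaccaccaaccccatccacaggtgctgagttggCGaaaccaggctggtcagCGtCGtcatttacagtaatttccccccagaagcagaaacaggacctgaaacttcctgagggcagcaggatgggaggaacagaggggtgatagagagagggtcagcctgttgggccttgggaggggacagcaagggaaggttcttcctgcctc
Mpeg1: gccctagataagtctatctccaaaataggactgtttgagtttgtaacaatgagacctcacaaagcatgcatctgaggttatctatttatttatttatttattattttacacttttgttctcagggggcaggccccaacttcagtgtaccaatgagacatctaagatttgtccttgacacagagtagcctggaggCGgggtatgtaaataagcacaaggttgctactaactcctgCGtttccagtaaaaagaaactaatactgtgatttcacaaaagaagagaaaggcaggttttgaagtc
Ctsd: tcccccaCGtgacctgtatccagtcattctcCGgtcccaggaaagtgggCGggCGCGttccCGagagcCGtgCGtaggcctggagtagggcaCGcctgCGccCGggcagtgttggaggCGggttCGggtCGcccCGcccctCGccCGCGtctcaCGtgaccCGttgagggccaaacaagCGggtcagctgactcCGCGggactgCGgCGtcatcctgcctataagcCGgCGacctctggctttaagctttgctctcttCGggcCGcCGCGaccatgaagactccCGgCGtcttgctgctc
Eef1a1: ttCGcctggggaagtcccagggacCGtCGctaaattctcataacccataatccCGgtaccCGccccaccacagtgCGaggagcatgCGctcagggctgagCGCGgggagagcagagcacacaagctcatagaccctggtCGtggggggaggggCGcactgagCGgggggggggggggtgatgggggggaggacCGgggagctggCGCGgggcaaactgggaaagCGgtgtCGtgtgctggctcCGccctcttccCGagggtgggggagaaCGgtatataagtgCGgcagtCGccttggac
Tmsb4x: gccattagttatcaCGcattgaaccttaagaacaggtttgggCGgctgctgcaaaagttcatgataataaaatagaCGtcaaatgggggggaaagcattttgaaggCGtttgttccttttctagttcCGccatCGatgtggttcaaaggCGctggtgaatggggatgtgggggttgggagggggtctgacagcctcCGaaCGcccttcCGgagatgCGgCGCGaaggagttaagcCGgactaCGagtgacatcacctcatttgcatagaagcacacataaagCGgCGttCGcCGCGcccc

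Across genes, CG content followed the level in steps and then turned. Of the 23284 genes, 23000 symbols matched RefSeq, 17556 had a promoter in the table, and the 14815 with 1 listed start were used. The median number of CG dinucleotides in 300 bases was 4 for genes below 1 TPM, 19 from 1 to 10 TPM, 23 from 10 to 100 TPM, 21 from 100 to 1000 TPM and 18 at 1000 TPM and above, against 13 for all promoters. The letters TATAAA, on either strand, were in 20.0% of promoters below 1 TPM, 5.61% from 10 to 100 TPM and 19.8% at 1000 TPM and above, against 13.8% of all. In only the bases before the start, these shares were 18.7%, 5.18% and 13.6%, against 12.7% of all. With CPM classes the highest class had 22.4%. The share in that class, of 81 promoters by TPM, thus depended on the window and the scaling. The GC box GGGCGG was in 27.8% of promoters below 1 TPM, 69.7% from 10 to 100 TPM and 59.3% at 1000 TPM and above, against 46.3% of all. Of the 1041 genes at 100 TPM or above, 98 (9.41%) had 5 CG dinucleotides or fewer, against 33.3% of all promoters.

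Medians ranged more widely among lists than among level classes. Macrophage identity genes had a median of 4 CG dinucleotides over 23 promoters, and 15 of those had 5 or fewer. Fc receptors and lectins had a median of 3 over 23 promoters, with 8 as the highest. Such low medians were not particular to these lists. B cell markers had 3 over 8 promoters, T and NK cell markers 3.5 over 8, neutrophil markers 4 over 15 and genes of other tissues 4.5 over 18. Stromal and endothelial markers had 5.5 over 10 and progenitor markers 14 over 8. Ribosomal proteins had a median of 22 over 53 promoters and none with 5 or fewer. The transcription factors of the lineage had a median of 29 over 15 promoters, so the factors and the identity genes stood far apart. CCAAT, on either strand, was in 20 of 25 cell cycle promoters and 14 of 23 macrophage identity promoters, against 39.8% of all.

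**Figure D3:**
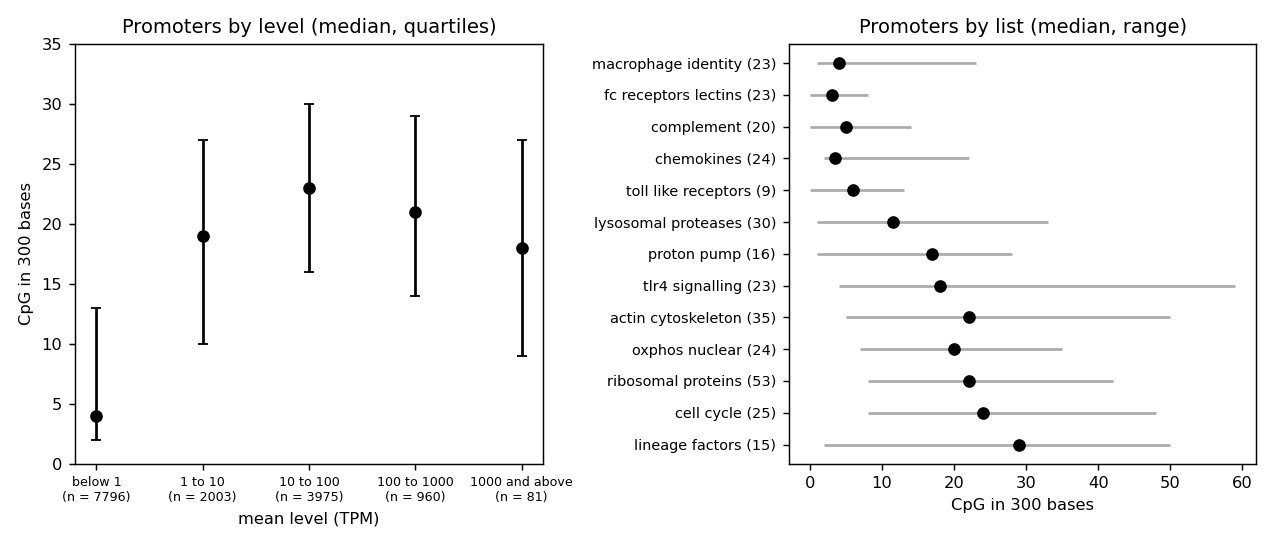
CG dinucleotides in 300-base promoters. The left panel gives the median (points) and quartiles (bars) by mean TPM, and the right panel the median (points) and range (lines) for 13 lists, with the number of promoters in brackets. The median climbs to 23 at 10 to 100 TPM, and macrophage identity genes (4) sit far below lineage factors (29).

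The defining markers of the labelled cell type were present. All 35 macrophage identity genes were at 1 TPM or above in both libraries, 28 at 100 TPM and 13 at 1000 TPM, with a median of 536 TPM in experiment 2 and 507 TPM in experiment 1. Over all genes that median was 0.627 TPM in experiment 2 and 0.576 TPM in experiment 1. After Lyz2, the highest were Emr1 with 3137 TPM in experiment 2 and 3356 TPM in experiment 1, Tyrobp with 3132 TPM in experiment 2 and 3220 TPM in experiment 1, and Lgals3 with 2728 TPM in experiment 2 and 2867 TPM in experiment 1. Lgals3 encodes galectin-3, a sugar-binding protein released by macrophages. The lowest member was at 1.42 TPM. The members of this and the other lists were chosen with earlier results of these data known. Such full counts are therefore not independent support for the cell type. In bulk RNA, fewer cells of a type and less RNA per cell cannot be told apart, so these levels are averages over the culture.

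All 32 transcription factors of the macrophage lineage list were at 1 TPM or above, at levels far below those of the identity genes. Their median was 46.8 TPM in experiment 2 and 42.8 TPM in experiment 1. Sfpi1, the gene of PU.1, was the highest with 630 TPM in experiment 2 and 543 TPM in experiment 1. It was followed by Maf with 349 TPM in experiment 2 and 329 TPM in experiment 1, Irf5 with 277 TPM in experiment 2 and 262 TPM in experiment 1, and Irf8 with 238 TPM in experiment 2 and 236 TPM in experiment 1. Maf encodes a large MAF factor of differentiated macrophages, and Irf5 and Irf8 encode interferon regulatory factors that act in myeloid cells. The log2 ratio of experiment 2 over experiment 1 was 0.21 for Sfpi1 and 0.01 for Irf8. Of 26 factors listed for other lineages, 4 were at 1 TPM or above and 11 had no count in either library, among them Foxp3, Tbx21 and Eomes of T and NK cells. The highest were Spic at 8.84 ± 1.09 TPM and Tal1 at 7.48 ± 0.0704 TPM, then Spib at 3.29 ± 0.673 TPM and Irf4 at 2.34 ± 0.380 TPM. Spic is an ETS factor known from iron-recycling macrophages and Tal1 is a factor of blood stem and erythroid cells. Spic and Gata6 were also listed as genes of tissue macrophages, so these factors are not all of other lineages.

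Genes that mark macrophages of particular tissues were unevenly present, with 17 of 27 (63.0%) at 1 TPM or above, against 47.2% of all genes. Their median was 2.90 TPM in experiment 2 and 1.91 TPM in experiment 1. Folr2, a folate receptor of resident macrophages, had 249 TPM in experiment 2 and 220 TPM in experiment 1, and Cd5l, a secreted scavenger-family protein, had 233 TPM in experiment 2 and 228 TPM in experiment 1. Fabp4, a fatty acid-binding protein, averaged 105 ± 4.78 TPM. Car4, Clec4f, Retnla and Krt79 had no count in either library.

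Digestive genes stood high as a group. Of 44 lysosomal genes, 42 were at 1 TPM or above, 33 at 100 TPM and 12 at 1000 TPM, and they held 5.95% of the TPM sum in experiment 2 and 5.97% in experiment 1. The vacuolar proton pump, which acidifies the lysosome, was represented by a subset of its genes. Atp6v0c had 1430 TPM in experiment 2 and 1463 TPM in experiment 1, and Atp6v0b had 709 TPM in experiment 2 and 746 TPM in experiment 1. Of the B subunits, Atp6v1b2 had 496 TPM in experiment 2 and 487 TPM in experiment 1 while Atp6v1b1, known from kidney, had no count. Of the a subunits, Tcirg1, the form known from osteoclasts, averaged 485 ± 13.9 TPM, against 192 ± 1.52 TPM for Atp6v0a1. In all, 19 of 25 pump genes were at 1 TPM or above, and Atp6v0a4, Atp6v1c2, Atp6v1b1, Atp6v1e2 and Atp6v1g3 were without counts.

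Motif letters in promoters of lysosomal and complement genes are shown for 3 genes, chosen after their letters were seen, with the motif in capitals. Ctss (chr3:95526536-95526835, plus) and C1qc (chr4:136892865-136893164, minus; GRCm38.p6) held GAGGAAGT, the letters of a PU.1-type ETS site, on the strand opposite to the gene, where it reads ACTTCCTC as printed. In Ctss it begins 2 bases before the start and in C1qc it begins 195 bases before it. Lamp1 (chr8:13158911-13159210, plus), which encodes a lysosomal membrane protein, held 4 copies of the E-box CACGTG within 61 bases before the start. It averaged 1883 TPM and is outside the rule for naming genes. GAGGAAGT was in 4 of 30 lysosomal and 1 of 20 complement promoters, against 3.34% of all promoters. It was in 1 of 23 macrophage identity promoters and in none of 15 lineage factor and 16 proton pump promoters, and its share was highest in the neutrophil list, at 5 of 15. CACGTG was in 7 of 30 lysosomal and 4 of 16 proton pump promoters, against 8.07% of all. It was also in 4 of 11 dendritic cell, 4 of 15 lineage factor and 4 of 18 translation factor promoters. Its share was thus not particular to lysosomal and pump genes. The 8 motifs searched also included CCGGAAGT, TGACGTCA and CTCTTTCC, all on both strands. The 2 ETS motifs share the letters GGAAGT without matching the same place, and a match describes letters only.
Ctss: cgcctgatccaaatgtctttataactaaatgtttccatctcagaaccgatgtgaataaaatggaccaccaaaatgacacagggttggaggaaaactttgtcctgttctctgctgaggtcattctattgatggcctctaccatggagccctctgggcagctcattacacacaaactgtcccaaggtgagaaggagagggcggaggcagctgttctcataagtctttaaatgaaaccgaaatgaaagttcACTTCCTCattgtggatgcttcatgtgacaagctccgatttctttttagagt
C1qc: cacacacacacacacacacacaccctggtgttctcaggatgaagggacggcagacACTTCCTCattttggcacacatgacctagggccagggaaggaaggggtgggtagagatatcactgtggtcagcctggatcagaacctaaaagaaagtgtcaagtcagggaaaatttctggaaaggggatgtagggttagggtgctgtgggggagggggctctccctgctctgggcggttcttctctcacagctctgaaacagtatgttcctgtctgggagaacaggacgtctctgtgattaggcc
Lamp1: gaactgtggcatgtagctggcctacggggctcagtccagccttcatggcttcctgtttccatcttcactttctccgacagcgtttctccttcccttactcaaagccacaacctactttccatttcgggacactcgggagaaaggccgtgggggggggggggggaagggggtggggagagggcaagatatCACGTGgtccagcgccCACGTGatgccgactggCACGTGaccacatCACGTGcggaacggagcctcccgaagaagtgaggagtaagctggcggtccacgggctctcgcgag

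Transcripts of receptors for antibody, sugars and dying cells were detected without stimulation. Of 31 Fc receptors and lectins, 28 were at 1 TPM or above. Fcer1g, the shared signalling chain of Fc receptors, had 2274 TPM in experiment 2 and 2365 TPM in experiment 1. Clec4a1 had 690 TPM in experiment 2 and 673 TPM in experiment 1, Fcgr3 had 657 TPM in experiment 2 and 705 TPM in experiment 1, and Clec12a averaged 593 ± 0.162 TPM. Among the 4 Fc gamma receptors, Fcgr3 held 52.4% of the family and Fcgr1, the high-affinity receptor, was next with 336 TPM in experiment 2 and 250 TPM in experiment 1. Of 29 genes of scavenging and clearance of dying cells, 26 were at 1 TPM or above. They were led by the C1q chains and Cd68, with 2495 TPM in experiment 2 and 2460 TPM in experiment 1, and Trem2, a lipid receptor, with 1444 TPM in experiment 2 and 1401 TPM in experiment 1. Mertk and Axl, receptors for dying cells, were not separated. Mertk had 83.8 TPM in experiment 2 and 77.2 TPM in experiment 1, and Axl had 90.6 TPM in experiment 2 and 68.6 TPM in experiment 1.

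Complement genes ranged from no count to 6271 TPM on average, with the C1q chains and properdin the highest. C1qb averaged 6271 ± 62.8 TPM, C1qc 4060 ± 65.3 TPM and C1qa 1335 ± 21.9 TPM, in the same order in both libraries, although the 3 chains form 1 complex. Cfp, which encodes properdin, a stabiliser of the alternative pathway, had 1205 TPM in experiment 2 and 1269 TPM in experiment 1. The other genes of the list given here with values were chosen after their values were seen. The classical pathway components that follow C1q were low, with C1ra at 3.32 ± 0.522 TPM, C2 at 0.479 ± 0.124 TPM, C4b at 0.344 ± 0.1105 TPM and C1s at 0.136 ± 0.107 TPM. C1ra, C1s and C4b have close copies in the mouse genome, so these levels are uncertain. C3 averaged 114 ± 10.7 TPM. Of the receptors, C3ar1 averaged 755 ± 44.1 TPM and C5ar1 463 ± 12.1 TPM, and Cr2 had 2 counts in each library. Of 29 complement genes, 16 (55.2%) were at 1 TPM or above in both libraries, near the 47.2% of all genes. C6, C7 and C8b of the membrane attack complex, with Cfd and Mbl2, had no count.

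Integrins were led by the chains of the CD11b/CD18 receptor for complement. Itgb2 had 618 TPM in experiment 2 and 616 TPM in experiment 1, and Itgam had 536 TPM in experiment 2 and 507 TPM in experiment 1. Itgb1 averaged 350 ± 9.49 TPM and Itgb5 240 ± 5.56 TPM. Itgam held 59.9% of the TPM of the 18 alpha chains, and Itgal at 93.6 ± 1.46 TPM and Itga6 at 87.8 ± 7.67 TPM came next and were not separated. In all, 14 of 26 integrin genes (53.8%) were at 1 TPM or above in both libraries, near the 47.2% of all genes.

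Transcripts of sensors of microbial products were detected before ligand. Of 18 Toll-like receptor and accessory genes, 14 were at 1 TPM or above. Unc93b1, which carries the endosomal receptors from the endoplasmic reticulum, averaged 1357 ± 0.437 TPM. The lipopolysaccharide co-receptor Cd14 had 870 TPM in experiment 2 and 874 TPM in experiment 1. Ly86 and Cd180, which form a receptor related to that for lipopolysaccharide, averaged 644 ± 26.1 and 232 ± 20.7 TPM. Of the 12 receptors themselves, the endosomal RNA sensors Tlr7 and Tlr8 were the highest. Tlr7 had 226 TPM in experiment 2 and 200 TPM in experiment 1, and Tlr8 had 201 TPM in experiment 2 and 170 TPM in experiment 1. Tlr4 and Ly96, the receptor of Kdo2-lipid A and its co-receptor MD-2, are outside the rule by which genes were named and were singled out after their values were seen. Tlr4 had 86.1 TPM in experiment 2 and 74.5 TPM in experiment 1, and Ly96 had 45.4 TPM in experiment 2 and 48.5 TPM in experiment 1.

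Of 36 genes of the signalling pathway below that receptor, 35 were at 1 TPM or above, most of them at moderate levels, with a median of 40.03 TPM in experiment 2 and 38.5 TPM in experiment 1. The highest were Inpp5d, the phosphatase SHIP1, at 178 ± 6.69 TPM, the adaptor Myd88 at 163 ± 4.60 TPM, the kinase Ikbke at 156 ± 8.23 TPM and the adaptor Tab2 at 124 ± 0.117 TPM. No member reached 1000 TPM.

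Transcripts of secreted signals had a far lower median than the signalling genes, but the share detected was near that of all genes. Over all genes, 47.2% were at 1 TPM or above in both libraries and 34.6% had no count, with a median of 0.592 TPM. Of 46 cytokine and growth factor genes, 23 were at 1 TPM or above, with a median of 1.45 TPM in experiment 2 and 1.47 TPM in experiment 1, and 12 had no count in either library, among them Ifng, Il2, Csf2 and Csf3. The highest were Grn with 2671 TPM in experiment 2 and 2430 TPM in experiment 1 and Spp1, osteopontin, with 608 TPM in experiment 2 and 532 TPM in experiment 1. Tgfb1 had 399 TPM in experiment 2 and 370 TPM in experiment 1, and held 99.7% of its family of 3. Mif averaged 169 ± 15.7 TPM. Inflammatory genes outside the naming rule, singled out after their values were seen, were Tnf with 15.2 TPM in experiment 2 and 11.6 TPM in experiment 1, and Il1b with 18.9 TPM in experiment 2 and 13.6 TPM in experiment 1. Il6 had 1 count in experiment 2 and 0 counts in experiment 1, and Nos2, the inducible nitric oxide synthase, had 4 counts in experiment 2 and 6 counts in experiment 1.

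Of 34 chemokine genes, 19 (55.9%) were at 1 TPM or above in both libraries, near the 47.2% of all genes. Ccl9 had 424 TPM in experiment 2 and 396 TPM in experiment 1, Ccl6 had 362 TPM in experiment 2 and 364 TPM in experiment 1, and Cxcl16, a membrane-bound chemokine that also binds oxidised lipoprotein, had 274 TPM in experiment 2 and 262 TPM in experiment 1. Pf4, known from platelets, had 165 TPM in experiment 2 and 166 TPM in experiment 1. Among chemokine receptors Cxcr4 was the highest with 203 TPM in experiment 2 and 228 TPM in experiment 1. Ccr2 at 27.2 ± 1.69 TPM and Ccr3 at 27.2 ± 3.84 TPM were lower and not separated from each other. Among receptors for cytokines and growth factors, Csf1r stood alone at 2425 TPM in experiment 2 and 2407 TPM in experiment 1. The next were Tnfrsf1b at 319 ± 3.84 TPM, Ifngr1 at 317 ± 1.55 TPM and Il10rb at 308 ± 12.1 TPM, which bind tumour necrosis factor, interferon gamma and ligands of the interleukin 10 family.

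Antigen presentation genes were also among the highest. Of 32 members, 30 were at 1 TPM or above and 6 at 1000 TPM, and they held 2.78% of the TPM sum in experiment 2 and 2.65% in experiment 1. B2m had 5486 TPM in experiment 2 and 4983 TPM in experiment 1, H2-D1 had 4460 TPM in experiment 2 and 4024 TPM in experiment 1, and Cd74 had 2994 TPM in experiment 2 and 3156 TPM in experiment 1.

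Among lipid and iron genes, 4 lipid and 2 iron and heme genes were at 1000 TPM or above in both libraries. Iron and heme genes held 5.23% of the TPM sum in experiment 2 and 5.32% in experiment 1, most of it as the ferritin chains. Hmox1, the enzyme that frees iron from heme, had 666 TPM in experiment 2 and 766 TPM in experiment 1. Ncoa4, the receptor that delivers ferritin to lysosomes, averaged 439 ± 6.20 TPM. Of 34 lipid genes, 31 were at 1 TPM or above. Pltp, a phospholipid transfer protein, had 2446 TPM in experiment 2 and 2412 TPM in experiment 1, the lipoprotein lipase Lpl had 1680 TPM in experiment 2 and 1498 TPM in experiment 1, and the lysosomal acid lipase Lipa had 1478 TPM in experiment 2 and 1420 TPM in experiment 1. Hmgcs1, of cholesterol synthesis, was listed at 0 in both libraries, but its row in the count table lies on an unplaced sequence of chromosome 13, so its level could not be read.

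Genes of energy metabolism were led by 1 isoform in several families. Of 33 genes of glucose uptake and glycolysis, 24 were at 1 TPM or above and 9 had no count, among them Slc2a2 and Slc2a4, glucose transporters known from liver and from muscle. Pkm2 had 1371 TPM in experiment 2 and 1423 TPM in experiment 1, Gapdh had 966 TPM in experiment 2 and 1038 TPM in experiment 1, Aldoa had 959 TPM in experiment 2 and 1018 TPM in experiment 1, and Ldha had 400 TPM in experiment 2 and 421 TPM in experiment 1. Hk3 was the highest hexokinase at 169 ± 0.432 TPM, above Hk1 at 46.8 ± 1.09 TPM. The glucose transporter genes were lower, with Slc2a6 at 39.6 ± 0.129 TPM and Slc2a1 at 25.9 ± 0.671 TPM. Of 38 nuclear genes of oxidative phosphorylation, 37 were at 1 TPM or above and 31 at 100 TPM, led by Cox4i1 with 906 TPM in experiment 2 and 1015 TPM in experiment 1 and by Atp5b at 544 ± 0.0220 TPM, then Atp5a1 at 455 ± 12.2 TPM and Cox8a at 440 ± 11.5 TPM.

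Of 44 gene families ordered within each library, 41 had the same first member in both and 39 the same first and next. The first and next members changed places between the libraries in the ferritins, the STAT factors and the TAM receptors. The next member differed in the integrin alpha chains and the C/EBP factors, where Cebpb had 43.0 TPM in experiment 2 and 36.4 TPM in experiment 1 and Cebpg had 40.3 TPM in experiment 2 and 39.5 TPM in experiment 1. In 13 families the first member held 90% or more of the family's TPM. Cybb, the catalytic subunit of the phagocyte oxidase, had 631 TPM in experiment 2 and 569 TPM in experiment 1, or 99.7% of its family. Pfn1 held 99.9% of the profilins and Cfl1 92.1% of the cofilins, both regulators of actin assembly. In 9 families no member held 50%. These included the Toll-like receptors, where Tlr7 held 22.6%, the annexins, where Anxa5 at 936 ± 5.76 TPM and Anxa1 at 923 ± 18.9 TPM were not separated, and the IRF factors, where Irf5 held 28.6%. Neither arginase gene reached 1 TPM, with Arg2 at 0.657 ± 0.331 TPM and Arg1 at 0.0794 ± 0.00244 TPM.

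Ribosomal proteins were the list with the most genes at 1000 TPM or above. Of 84 cytosolic ribosomal protein genes, 82 were at 1 TPM or above, 81 at 100 TPM and 43 at 1000 TPM, and they held 8.44% of the TPM sum in experiment 2 and 9.17% in experiment 1. Rplp1 had 2763 TPM in experiment 2 and 3018 TPM in experiment 1, and Rps14, Rpl41 and Rps9 averaged 2318 ± 139, 2298 ± 215 and 2146 ± 139 TPM. Rpl3l, a muscle form, had no count. Many ribosomal protein genes, and Eef1a1, Tmsb4x, Gapdh and the ferritin genes, have processed pseudogenes of nearly the same sequence, and how reads that match several places were counted is not given, so these levels are uncertain. Actin cytoskeleton genes held 4.86% of the TPM sum in experiment 2 and 5.03% in experiment 1. The NADPH oxidase subunit Cyba had 1707 TPM in experiment 2 and 1861 TPM in experiment 1, and the antioxidant genes Prdx1 and Gpx1 averaged 1568 ± 77.3 and 1080 ± 14.8 TPM.

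Genes of the cell cycle were detected at moderate levels. Of 37 cell cycle genes, 36 were at 1 TPM or above in both libraries, with a median of 31.4 TPM in experiment 2 and 31.1 TPM in experiment 1. Pcna, the sliding clamp of replication, had 592 TPM in experiment 2 and 612 TPM in experiment 1. Cdkn1a, an inhibitor of cyclin-dependent kinases, had 188 TPM in experiment 2 and 157 TPM in experiment 1. Cdk4 averaged 130 ± 2.46 TPM and the helicase subunit Mcm6 91.6 ± 8.74 TPM. Immediate-early genes had a lower median than the cell cycle genes, of 16.8 TPM in experiment 2 and 14.2 TPM in experiment 1. Of 25 members, 19 were at 1 TPM or above. The highest were Atf3 with 236 TPM in experiment 2 and 231 TPM in experiment 1, Klf6 with 155 TPM in experiment 2 and 137 TPM in experiment 1, and Zfp36, whose product speeds the decay of cytokine messengers, with 129 TPM in experiment 2 and 115 TPM in experiment 1.

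Markers of other cells were mostly below 1 TPM. Of 169 genes listed for other blood cells, progenitors, stroma, other tissues or other lineages, 44 were at 1 TPM or above in both libraries. Of the 169, 14 averaged 10 TPM or more, and 52 had no count in either library. They include Spic and Gata6, which also stand in the tissue macrophage list. Over all 23284 genes, 47.2% were at 1 TPM or above in both and 34.6% had no count. Genes without counts were thus not more frequent among the markers. The median of the markers was 0.137 TPM, against 0.592 TPM over all genes. Dendritic cell (7 of 14), stromal and endothelial (10 of 18) and neutrophil genes (7 of 15) were at 1 TPM or above about as often as all genes. Of 30 genes of other tissues, such as albumin (Alb), insulin (Ins1, Ins2) and keratins, 21 had no count. The exceptions there were Mbp, the myelin basic protein gene, at 45.6 ± 1.17 TPM and the synapsin gene Syn1 at 15.2 ± 1.18 TPM.

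In most lists, the blood cell genes at 10 TPM or above stood beside low or absent members of the same list. Of 16 T and NK cell genes only Cd28 and Cd4 were at 1 TPM or above. Cd28, a co-stimulatory receptor, had 83.2 TPM in experiment 2 and 85.2 TPM in experiment 1, and Cd4 had 27.4 TPM in experiment 2 and 25.3 TPM in experiment 1. In the same libraries Cd3d, Prf1, Gzma, Gzmb and Ncr1 had no count. Pf4 was the only gene of 16 erythroid and megakaryocyte genes at 10 TPM or above, and 4 were at 1 TPM or above in both libraries. That list and the T and NK cell list each had 5 of 16 genes without counts, no larger a share than the 34.6% of all genes. Of 13 B cell genes, 2 were at 1 TPM or above in both libraries, Cd22 at 11.7 ± 0.476 TPM and Cd79b at 10.6 ± 2.41 TPM. In experiment 1 alone, 4 were at 1 TPM or above, among them Cd79a and Ms4a1. Cd79a had 0.587 TPM in experiment 2 and 2.72 TPM in experiment 1, and Ms4a1 had 0.408 TPM in experiment 2 and 1.45 TPM in experiment 1. Both are outside the rule for naming genes. Of 15 neutrophil genes, 7 were at 1 TPM or above in both and none was without counts. Csf3r averaged 42.9 ± 2.28 TPM, S100a9 31.3 ± 8.81 TPM, S100a8 22.4 ± 4.81 TPM and Ngp 12.02 ± 1.24 TPM. Batf3, of dendritic cells, averaged 17.0 ± 0.172 TPM, the progenitor marker Procr 10.6 ± 1.32 TPM and the endothelial marker Pecam1 11.9 ± 0.756 TPM. Batf3 also stands in the macrophage lineage list and Pf4 in the chemokine list. None of these 14 genes shared exon bases with another gene on the same strand.

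**Figure D4:**
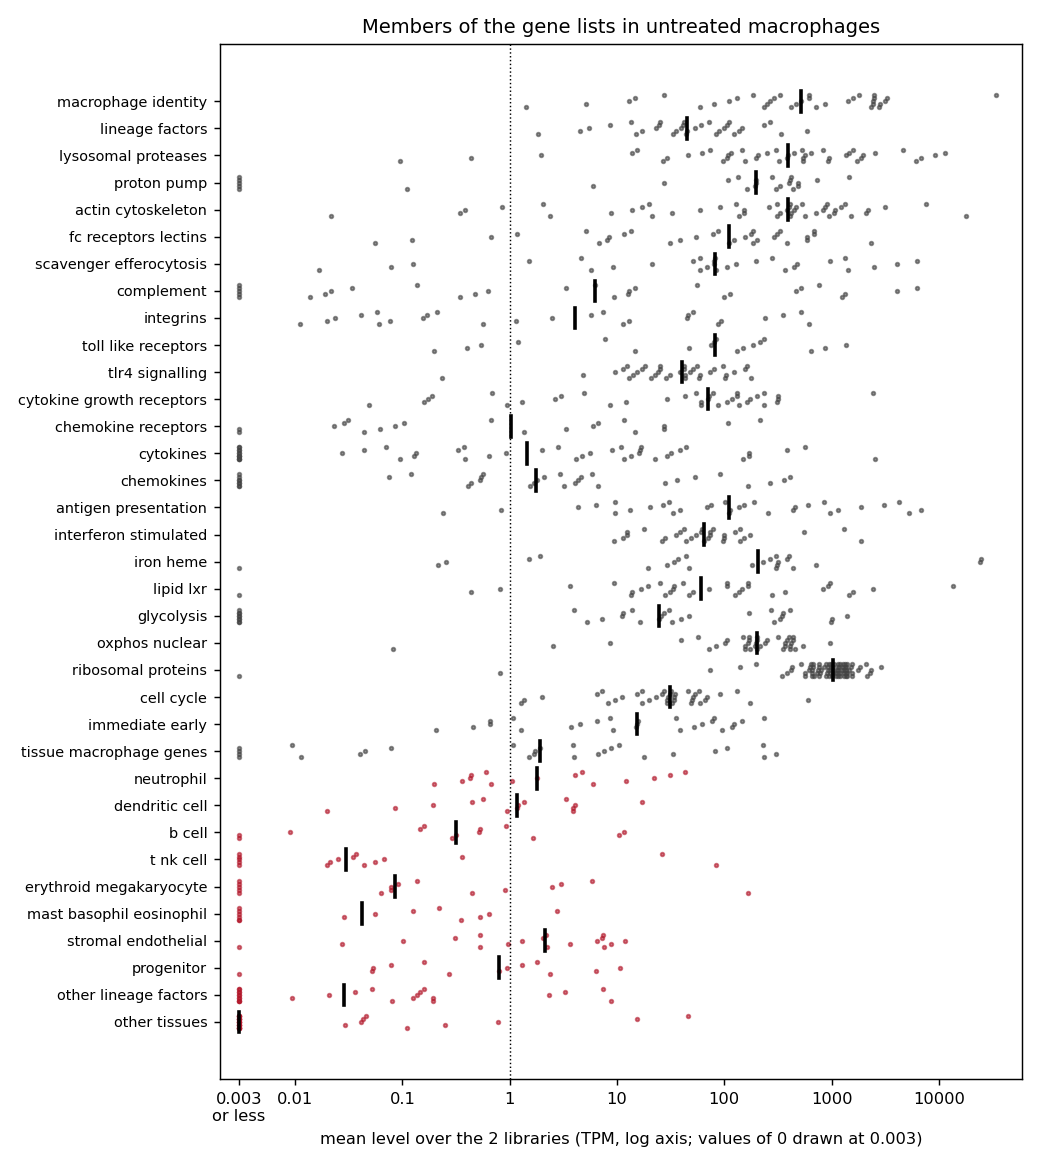
Mean level of each member of 35 lists in TPM on a log axis, with values of 0 drawn at 0.003, black bars for the median and a dotted line at 1 TPM. Dark points are lists of macrophage genes and of general cell functions, and red points lists of other cells or lineages. Macrophage identity (median 521 TPM) and ribosomal proteins (median 1027 TPM) lie far to the right of the lists of other cells.

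The libraries were close but not copies of each other. Across the 11153 genes with a mean of at least 1 TPM and a count in both, log2 levels had Pearson's r of 0.993 and Spearman's rho of 0.996, a description across genes that are not independent replicates. The chi-square of counts per gene, with 1 degree of freedom, had a mean of 11.8 and a median of 2.08 over 11159 genes, and the libraries were counted as 2 samples. It sets them against counting error alone. The SD of the log2 ratio was 0.258, where counting error alone would give 0.165. For genes of 200 bases or more the SD was 0.235 against 0.119, and for features under 200 bases 0.855 against 0.891. Over all lengths it was 0.414 for genes from 1 to 10 TPM, 0.154 from 10 to 100 TPM, 0.121 from 100 to 1000 TPM and 0.102 at 1000 TPM and above. Counting error alone would give 0.285, 0.0754, 0.0308 and 0.0147 in those classes. Among the 7869 genes with a mean of at least 10 TPM, 9 differed by more than 2-fold.

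Of the 16 genes with the largest log2 ratios each way at 10 TPM or more, 13 were microRNA or small nucleolar RNA features under 200 bases. The most extreme were Mir5130 at 2.39, with 141 counts in experiment 2 and 28 counts in experiment 1, and Mir186 at -1.94, with 7 counts in experiment 2 and 28 counts in experiment 1. The other 3 were Gm4951 at 0.95, Plac8 at -0.72 and 2010003O02Rik at -0.71. Gm4951 had 970 counts in experiment 2 and 523 counts in experiment 1. Among genes of 200 bases or more, chosen after the values were seen, the 8 highest in experiment 2 also held Ifi44 at 0.89, Mnda at 0.87 and Zbp1 at 0.80. The 8 lowest there held S100a9 at -0.58, Rpph1 at -0.62 and Mettl5 at -0.52.

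Interferon-stimulated genes differed between the libraries mostly in 1 direction. All 31 were at 1 TPM or above in both, and 30 of 31 were higher in experiment 2, against 64.5% of all genes with a mean of at least 1 TPM. With CPM, TMM or DESeq2 scaling 29 were higher. Of all 11153 genes compared, 7198 were higher in experiment 2 by TPM, 6065 by CPM, 5583 by TMM and 5364 by DESeq2 scaling, so the split of all genes depends on the scaling. The median log2 ratio was 0.49 for the list and 0.05 for all genes. The list summed to 6244 TPM in experiment 2 and 5014 TPM in experiment 1. Ifitm3, an antiviral membrane protein, had 2069 TPM in experiment 2 and 1690 TPM in experiment 1, and Ifitm2 had 1324 TPM in experiment 2 and 1298 TPM in experiment 1. Bst2, which tethers budding viruses, had 611 TPM in experiment 2 and 487 TPM in experiment 1. The interferon regulator Irf7 had 217 TPM in experiment 2 and 131 TPM in experiment 1.

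Other lists also moved with the experiment. Of 18 stromal and endothelial markers, 15 were higher in experiment 2, and the list summed to 83.6 TPM in experiment 2 and 42.9 TPM in experiment 1. The 11 of them with a mean of at least 1 TPM were all higher in experiment 2 under TPM, CPM, TMM and DESeq2 scaling, with a median log2 ratio of 1.15. The smooth muscle actin Acta2 had 12.4 TPM in experiment 2 and 5.09 TPM in experiment 1, Sparc had 10.4 TPM in experiment 2 and 4.67 TPM in experiment 1, and Fn1 had 10.2 TPM in experiment 2 and 4.65 TPM in experiment 1. Tek, of endothelial cells, had no count in either. Ribosomal protein genes went the other way. Only 2 of 82 were higher in experiment 2 under each of these scalings, with a median log2 ratio of -0.12. The neutrophil list summed to 120 TPM in experiment 2 and 138 TPM in experiment 1, but its genes were mixed. Of its 15 genes, 8 were higher in experiment 2, and of the 9 with a mean of at least 1 TPM, 3 were. The B cell list summed to 23.4 TPM in experiment 2 and 30.3 TPM in experiment 1, with 4 of 13 genes higher in experiment 2. Whether the cell makeup of the cultures had a part in these differences was not tested, and with 1 library per experiment, experiment and library cannot be told apart.

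**Figure D5:**
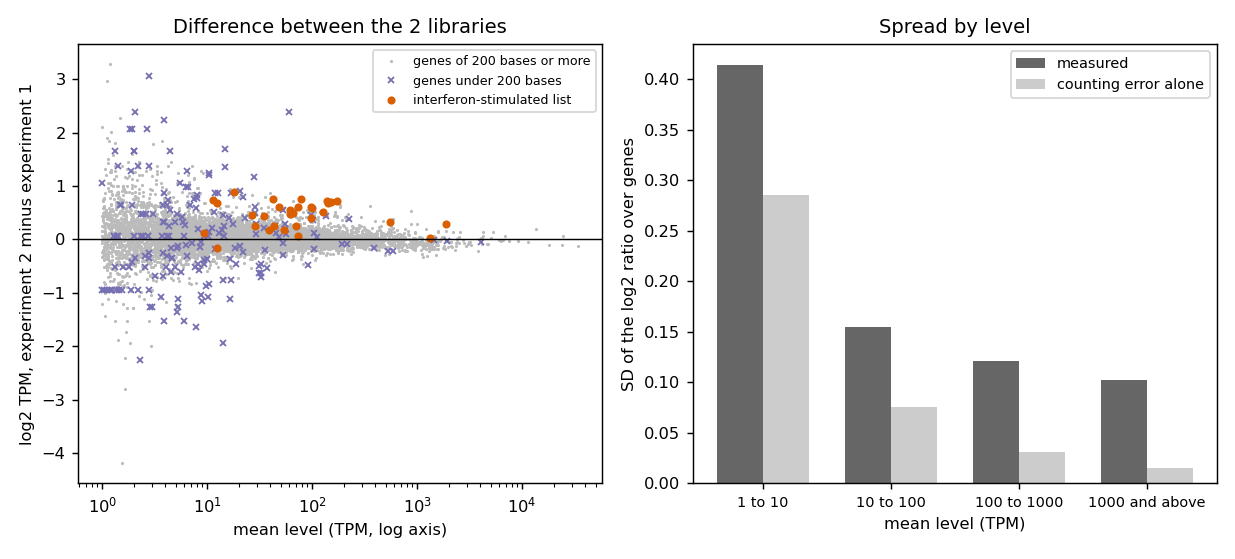
Difference between the untreated libraries. The left panel plots log2 TPM of experiment 2 minus experiment 1 against mean TPM (log axis) for 11153 genes, with the interferon-stimulated list in orange and features under 200 bases as crosses. The right panel gives the SD of that difference by level beside counting error alone. Of the 31 orange points, 30 lie above 0.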

How the data were processed

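Poly(A) RNA of untreated bone marrow-derived macrophages was sequenced in 2 libraries. The authors deposited raw read counts per gene with an exonic length column. Per the submitters' processing notes, the tools included bcl2fastq 2.15.0.4, TopHat2 2.0.11 and featureCounts 1.4.5-p1 with build mm9. Their roles and order, and the strand setting of the counting, were not given in the sources used here. A normalized table was not used. The members and lists were chosen with earlier results of these data known.

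From the deposited counts, CPM and TPM were computed with Python 3.11.15 and pandas 2.3.3. Genes named are the 30 highest, the 4 highest of each of 40 lists, every marker of another cell type at a mean of 10 TPM or more, the first and next member of each of 44 families, and the 8 largest log2 ratios each way at 10 TPM or more. Genes without counts in both libraries may be named as such. Some genes that meet this rule are not reported here. The code was tested on simulated counts. Scaling alternatives used edgeR 4.0.16 (TMM) and DESeq2 1.42.0 in R 4.3.3. Gene models that overlap on the same strand share reads, and genes with 50% or more of their exon bases shared (542 genes) held 2.76% of the TPM sum in experiment 2 and 2.82% in experiment 1. Lists were matched by symbol, and 1037 of 1042 listed genes were in the table.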

Additional observations from a re-analysis of the deposited data

How the results depend on the processing

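No paired analysis was possible because the untreated libraries form 1 group and no test between groups was made. The number of genes at 1 TPM or above in both libraries, 10979, lay between 10326 and 13842 under all alternatives, and between 11114 and 11177 with either library left out. The share of the TPM sum in the 100 highest genes ranged from 34.7% to 35.6% with either library left out and was 26.2% with CPM in place of TPM, where lengths do not enter. The SD of the log2 ratio was 0.235 with CPM, where genes were kept at a mean of at least 1 CPM and so formed another set. CPM shifts all log2 ratios alike, so the scaling itself leaves the SD unchanged. The SD was 0.149 at a mean of at least 10 TPM and 0.168 with no filter on log2(TPM + 1). It was 0.257 without genes on several chromosomes or strands and the ribosomal RNA precursor. Without genes under 200 bases, an alternative chosen after seeing the data, it was 0.235. With TMM or DESeq2 size factors on the main set of genes it equalled the main value by construction, and it has no value with 1 library. List members at 1 TPM or above in both numbered 765, between 763 and 820 under the alternatives, and between 773 and 775 with either library left out. The median CG count of promoters at 10 to 100 TPM was 22 with CPM classes, 17 in only the bases before the start, and 22 over all listed starts, the last added after seeing the data. Of 280 counts for single lists, 274 stayed within 1.5 times of the main one. The 6 others were in the neutrophil, dendritic, B cell and mast cell lists, where for example 11 neutrophil genes had at least 10 counts in both libraries. Of 237 named genes, 125 kept a rank within 1.5 times with CPM, so ranks depend on length scaling, and their TPM under other totals was between 1.00 and 1.01 times the main value.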

Other observations

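The untreated cultures also held nuclear noncoding RNA. Malat1 had 579 TPM in experiment 2 and 504 TPM in experiment 1, and Neat1, the scaffold of paraspeckles, had 443 TPM in experiment 2 and 349 TPM in experiment 1. Gas5 averaged 61.2 ± 0.792 TPM and Meg3 had no count in either library. Xist, the RNA that coats the inactive X chromosome, had 108 TPM in experiment 2 and 90.9 TPM in experiment 1. The Y-linked genes Eif2s3y, Kdm5d, Uty, Zfy1 and Sry had no count in either library, and Ddx3y had 0 counts in experiment 2 and 2 in experiment 1. The X-linked relatives of Ddx3y and Eif2s3y, Ddx3x and Eif2s3x, averaged 298 ± 6.38 and 115 ± 1.34 TPM.

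Features under 200 bases weighed much more by TPM than by counts. The 725 such features held 1.22% of the TPM sum in experiment 2 and 1.23% in experiment 1, but 0.0464% of counts in experiment 2 and 0.0479% in experiment 1. Of them, 171 were at 1 TPM or above in both libraries. The 14 with a mean of 100 TPM or more were all microRNA entries, and all 14 shared exon bases with another gene on the same strand. Mir5121, with 1925 TPM in experiment 2 and 1956 TPM in experiment 1, is an example chosen after its values were seen. It overlaps exons of Rpl13a, which averaged 1194 ± 67.9 TPM.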
